A study of Mus musculus with 20 samples.

Results

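The immunity-related GTPases (IRG family) are proteins that interferon-gamma induces in mice, and 8 of their genes (Irgm1, Irgm2, Igtp, Iigp1, Tgtp1, Tgtp2, Ifi47 and Gm4951) were followed here in kidney RNA-seq. They were taken by gene symbol, with earlier results of these data known, from the 15780 genes that the count tables listed. All 8 were listed and all 8 were among the 13990 genes that reached 10 counts in 5 or more libraries of 20 and were tested. Several of them were already known from earlier work on these same mice to differ between groups, so their direction here is not independent evidence.

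The 20 female NCr nude mice (sp/sp homozygous, 7 wk old at purchase) formed 4 groups of 5, and each library carried the number of its own mouse. Mice of the EIC group received 6 intravenous injections, every other day, of engineered immune complexes (EIC) made in vitro from 0.2 mg galactose-deficient human IgA1 and 0.1 mg of a recombinant human IgG autoantibody against it, plus vehicle by gavage. EIC + S60 and EIC + S120 mice received the same injections and 60 or 120 mg/kg of sparsentan, a dual antagonist of endothelin and angiotensin II receptors, by daily gavage for 11 days. Control mice received injections of PBS and vehicle gavage, and all kidneys were taken on day 12. Nude mice lack mature T cells, human complexes stand in for those of IgA nephropathy, and mice of 1 sex and 1 strain were used.

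IRG proteins act on the vacuoles in which intracellular parasites and bacteria live. Interferon-gamma binds its receptor (Ifngr1, Ifngr2), the kinases Jak1 and Jak2 pass the signal on, and Irf1 is among the factors that switch on the IRG genes, which stand at low levels in resting cells. The family works as a pair of classes. The regulators Irgm1, Irgm2 and Igtp (also called Irgm3) sit on host membranes and keep the others inactive there, and the effectors Iigp1 (Irga6), Tgtp1 and Tgtp2 (Irgb6) and Ifi47 (Irgd) load onto the vacuole and break it. Gm4951 encodes a further interferon-inducible GTPase, named Ifgga2, whose role was not assigned here.

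Of the 8 genes, 6 lie on chromosome 11 (GRCm38, GENCODE vM21). Irgm1 (48861968 to 48871683, minus strand), Tgtp1 (48985327 to 48994172, minus strand), Tgtp2 (49057194 to 49064206, minus strand) and Ifi47 (49076587 to 49096974, plus strand) form a cluster, and Igtp (58199556 to 58207591) and Irgm2 (58199618 to 58222782) overlap each other on the plus strand of the same chromosome. RefSeq promoter windows of GRCm38.p6, which run from 250 bases before the start of transcription to 50 after it, were matched for these 6 genes. They were searched on both strands for the gamma-activated site (GAS, an element of the response to interferon-gamma; TTCNNNGAA) and the core of the interferon-stimulated response element (ISRE, bound by interferon regulatory factors; GAAA, any 2 bases, GAAA). The windows with a match are shown because they hold the elements through which interferons are known to act, 50 bases each, 5′ to 3′ on the strand of the gene, with the matches in capitals.
Irgm1: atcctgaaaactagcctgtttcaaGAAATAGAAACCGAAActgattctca
Irgm2: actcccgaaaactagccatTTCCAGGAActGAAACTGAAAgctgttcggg
Igtp: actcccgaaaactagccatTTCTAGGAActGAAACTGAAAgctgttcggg
Tgtp1: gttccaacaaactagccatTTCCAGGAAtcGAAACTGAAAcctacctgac
Tgtp2: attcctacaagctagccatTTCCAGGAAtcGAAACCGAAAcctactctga

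These stretches lie at chr11:48871425-48871474 (Irgm1, minus strand), chr11:58214883-58214932 (Irgm2, plus strand), chr11:58199492-58199541 (Igtp, plus strand), chr11:48992304-48992353 (Tgtp1, minus strand) and chr11:49064263-49064312 (Tgtp2, minus strand) of GRCm38.p6. Those of Irgm1, Irgm2 and Tgtp1 lie inside the GENCODE spans of these genes, so the RefSeq starts used here are not the outer ends of those spans. Irgm2, Igtp, Tgtp1 and Tgtp2 each held 1 GAS match followed by 1 ISRE core match, with 2 bases between them. The Igtp pair stood nearest to the start, its GAS match at bases −45 to −37 and its ISRE core match at −34 to −25, and the Tgtp1 pair farthest, at −88 to −80 and −77 to −68. Irgm1, the regulator with the highest level in the kidney, held 2 overlapping ISRE core matches (−30 to −21 and −24 to −15) and no GAS match. Ifi47 held neither. Over all 32851 promoter windows, a GAS match was found in 8.30%, an ISRE core match in 3.44% and both in 0.454%. GAS and ISRE core in this order and at this spacing, an arrangement looked for after the matches had been seen, occurred in 5 windows (0.0152%), those of the 4 members and of Gm12185, a gene model that shares exon bases with Tgtp1. The GENCODE span of Gm12185, on the minus strand, ends at 48992226, next to the Tgtp1 stretch. Its window may thus hold the same site counted again. The promoter windows of Irgm2 and Igtp were 72.8% identical and those of Tgtp1 and Tgtp2 66.4%, so these matches are not independent of each other.

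**Figure D1:**
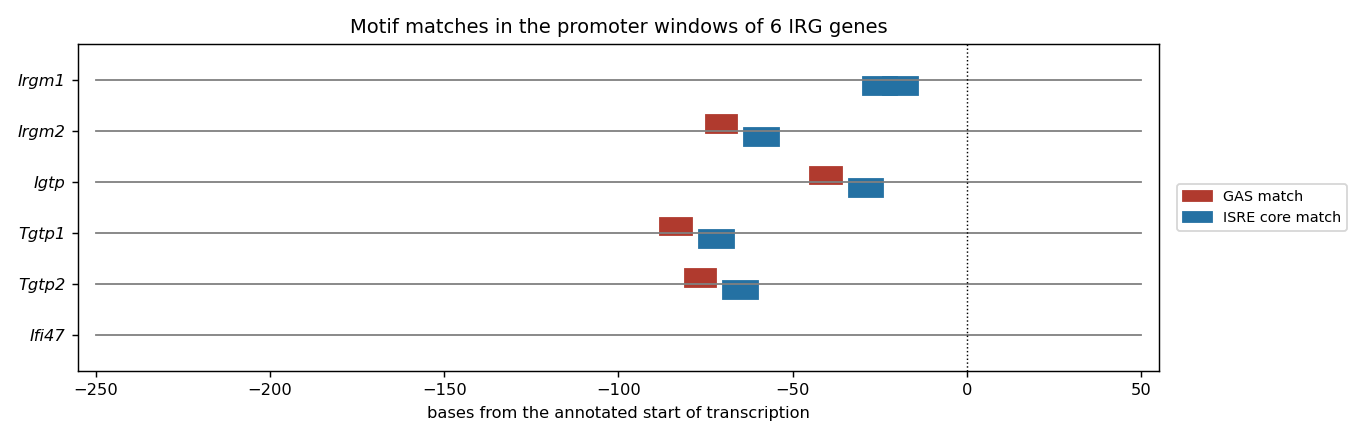
Positions of GAS matches (red) and ISRE core matches (blue) in the promoter windows of 6 IRG genes, in bases from the start of transcription annotated by RefSeq (dotted line), with grey lines for the windows searched. Irgm2, Igtp, Tgtp1 and Tgtp2 show a GAS match directly followed by an ISRE core match, Irgm1 shows 2 overlapping ISRE core matches, and Ifi47 shows no match.

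Library totals ranged from 12662345 to 38651781 counts. Control 651 (37548347) and Control 652 (38651781) were the deepest libraries of all, while the other Control libraries had 12662345 to 14388553. EIC 65 had a count for every listed gene, while every other library had at least 234 listed genes at 0. Markers of the labelled tissue were high: the summed level of 7 proximal tubule genes was 9841 to 12749 CPM (counts scaled to a common library size after TMM normalization) in EIC mice and 8151 to 13027 CPM in Control mice. A single EIC mouse, EIC 67, had the highest level of its group for all 8 IRG genes, and EIC 69 the second highest for all 8. In the EIC + S120 group mouse 79 was highest for all 8, and in EIC + S60 mouse 72 for 6. The total of EIC 67, 17403376 counts, was the lowest of the EIC group, whose highest was 19635495. Results are therefore given with and without EIC 67.

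**Figure D2:**
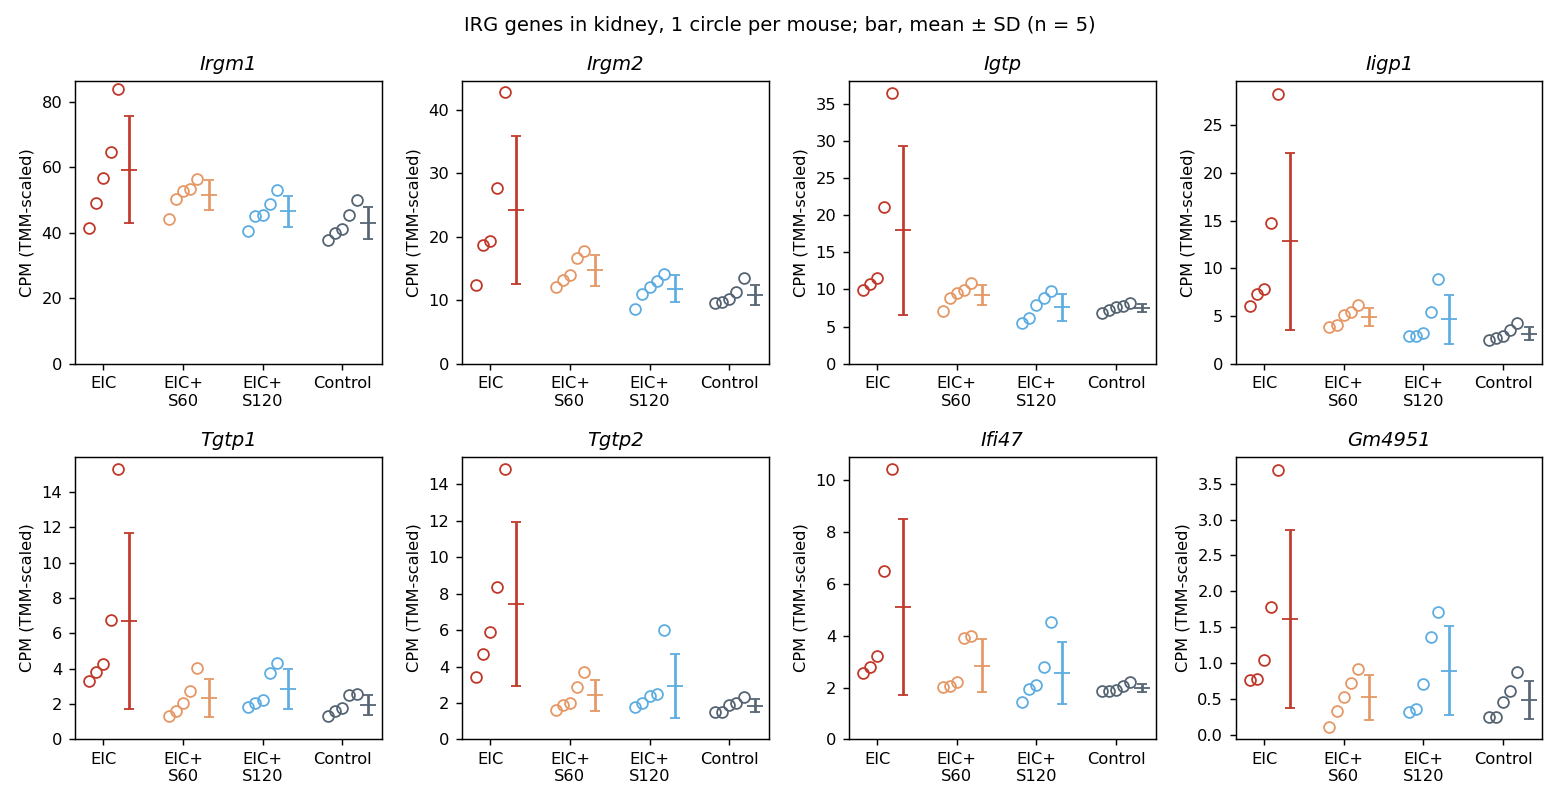
CPM of the 8 IRG genes per mouse in EIC, EIC + S60, EIC + S120 and Control kidneys. Each open circle is a mouse (n = 5 per group), sorted by value, bars give the mean ± SD, and each panel has its own linear axis from 0. EIC 67 is the top circle of the EIC group in every panel, at 84.0 CPM for Irgm1 and 36.5 CPM for Igtp.

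By mean CPM the regulators were the more abundant IRG transcripts, though reads of Tgtp1 and Tgtp2 may have been lost to their shared sequence. Irgm1, which protects host organelles from the effectors, had 49.2, 56.7, 84.0, 41.4 and 64.8 CPM in EIC mice 65 to 69, against 41.2, 45.3, 37.6, 50.1 and 40.002 CPM in Control mice 651 to 655. It had 53.4, 52.8, 50.4, 56.3 and 44.2 CPM in EIC + S60 mice 71 to 75, and 45.0, 45.3, 53.0, 40.5 and 48.7 CPM in EIC + S120 mice 77 to 81. Only EIC 66, 67 and 69 lay above every Control mouse, and of the mice given sparsentan only EIC + S120 80 lay outside the span of the EIC group, just below it. Its LFC (log2 fold change) in EIC vs. Control was 0.47 (SE 0.14), the smallest of the 8, and did not pass edgeR's quasi-likelihood test (Benjamini-Hochberg adjusted p = 0.071). LFCs are edgeR's, while the SE beside each comes from a separate fit (limma-trend), whose LFC here was 0.43.

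Irgm2, a regulator at the Golgi apparatus, had 19.4, 18.8, 42.8, 12.5 and 27.7 CPM in EIC mice 65 to 69, against 11.2, 10.2, 9.71, 13.5 and 9.59 CPM in Control mice 651 to 655. It had 16.6, 17.7, 12.04, 14.0 and 13.2 CPM in EIC + S60 mice, and 13.1, 10.96, 14.2, 8.64 and 12.1 CPM in EIC + S120 mice. In EIC, 4 of 5 mice lay above every Control mouse, EIC 68 being the exception. Without EIC 67 its LFC in EIC vs. Control was 0.85 (edgeR adjusted p = 0.0164).

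Igtp, a regulator on the endoplasmic reticulum and lipid droplets, had 11.5, 10.7, 36.5, 9.88 and 21.1 CPM in EIC mice 65 to 69, against 7.23, 8.16, 6.78, 7.82 and 7.66 CPM in Control mice 651 to 655. It had 9.90, 10.9, 8.90, 9.58 and 7.15 CPM in EIC + S60 mice, and 8.89, 6.19, 9.78, 5.42 and 7.86 CPM in EIC + S120 mice. No EIC value was as low as any Control value, and every EIC + S120 mouse lay below every EIC mouse. Its LFC in EIC vs. Control was 1.25 (SE 0.27, edgeR adjusted p = 0.0237), and 0.82 without EIC 67 (adjusted p = 0.0343). Igtp and Irgm2 share 162 exon bases on the same strand, 8.01% of the exon bases of Igtp and 4.39% of those of Irgm2, and reads there may have been dropped or split.

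Iigp1 (60376027 to 60392634) and Gm4951 (60212080 to 60247820) are neighbors on the plus strand of chromosome 18 (GRCm38, GENCODE vM21), and their promoters were not analysed here. Among the effectors, Iigp1, which binds early to the vacuole of Toxoplasma, had 7.87, 6.04, 28.3, 7.31 and 14.7 CPM in EIC mice 65 to 69, against 2.67, 2.91, 2.49, 4.22 and 3.48 CPM in Control mice 651 to 655. It had 5.11, 6.12, 5.47, 4.10 and 3.82 CPM in EIC + S60 mice, and 5.45, 2.92, 8.86, 3.22 and 2.86 CPM in EIC + S120 mice. The EIC and Control groups did not overlap, and 4 of 5 mice at either sparsentan dose lay below every EIC mouse. Without EIC 67 its LFC in EIC vs. Control was 1.53 (edgeR adjusted p = 0.0137).

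Tgtp1 and Tgtp2, first described as GTPases of T cells, could hardly be told apart by short reads. Their transcripts were 99.3% identical, with 19 differing positions in 2823 aligned columns, and 80.0% of the 100-base windows of Tgtp1 and 80.4% of those of Tgtp2 occurred unchanged in the other. Tgtp1 also shares 223 exon bases with Gm12185 on the same strand. Counts of each gene are therefore uncertain, and their sum was analysed beside them.

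Tgtp1 had 3.33, 3.84, 15.3, 4.27 and 6.73 CPM in EIC mice 65 to 69, against 1.75, 1.58, 2.55, 2.52 and 1.32 CPM in Control mice 651 to 655. Tgtp2 had 4.68, 3.43, 14.8, 5.91 and 8.36 CPM in the same EIC mice, against 1.91, 1.48, 2.30, 1.496 and 2.01 CPM in Control. For both genes, the lowest EIC mouse was above the highest Control mouse. The EIC + S60 mice had 2.75, 4.04, 2.04, 1.59 and 1.34 CPM of Tgtp1 and the EIC + S120 mice 3.73, 2.08, 4.34, 1.83 and 2.20 CPM. Tgtp2 was at 1.90, 3.69, 1.98, 2.90 and 1.59 CPM in EIC + S60 and at 2.37, 2.501, 5.99, 1.77 and 2.02 CPM in EIC + S120. For Tgtp2, 4 of 5 mice at either dose lay below every EIC mouse.

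As a sum, Tgtp1 and Tgtp2 averaged 14.1 ± 9.45 CPM in EIC kidneys and 3.78 ± 0.70 CPM in Control kidneys (SD, n = 5 each), an LFC of 1.91 (SE 0.34, edgeR adjusted p = 0.0103). In EIC + S60 the sum was 4.76 ± 1.79 CPM (LFC −1.58 vs. EIC, SE 0.34, adjusted p = 0.631), and in EIC + S120 it was 5.77 ± 2.71 CPM (LFC −1.29 vs. EIC, SE 0.34, adjusted p = 0.296). The share of these counts placed on Tgtp2 was 53.7% in EIC, 51.3% in EIC + S60, 49.7% in EIC + S120 and 49.2% in Control on average, and between 37.3% and 64.6% in single mice.

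Ifi47, the effector with the lowest EIC LFC, had 3.23, 2.56, 10.46, 2.81 and 6.52 CPM in EIC mice 65 to 69, against 2.08, 2.23, 1.87, 1.90 and 1.86 CPM in Control mice 651 to 655. It had 3.997, 3.93, 2.21, 2.02 and 2.05 CPM in EIC + S60 mice, and 2.79, 1.96, 4.52, 1.45 and 2.08 CPM in EIC + S120 mice. The EIC mice all lay above the Control mice, EIC 66 by little. Its LFC was 1.35 (SE 0.34, edgeR adjusted p = 0.048), and without EIC 67 it was 0.92 and no longer passed (adjusted p = 0.151). Ifi47 shares 111 exon bases with Olfr56 on the same strand and 106 with Gm12188 on the opposite strand, and no source used here gives the strand setting of the counting.

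Gm4951 was the least abundant, with 2 to 65 counts per library. It had 0.772, 1.05, 3.70, 0.760 and 1.79 CPM in EIC mice 65 to 69, against 0.243, 0.251, 0.871, 0.612 and 0.464 CPM in Control mice 651 to 655. It had 0.721, 0.924, 0.116, 0.328 and 0.531 CPM in EIC + S60 mice, and 1.36, 0.715, 1.71, 0.315 and 0.357 CPM in EIC + S120 mice. The groups overlapped, 3 of 5 EIC mice lying above every Control mouse. Its LFC in EIC vs. Control was 1.83 (SE 0.50) and did not pass edgeR's test (adjusted p = 0.0824).

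Per kb of exon, the order of levels in EIC kidneys was Irgm1 (10.2 CPM per kb), Igtp (8.87), Irgm2 (6.56), Tgtp2 (2.53), Iigp1 (2.21), Tgtp1 (2.09), Ifi47 (2.07) and Gm4951 (0.61). In Control kidneys it was Irgm1 (7.38 CPM per kb), Igtp (3.72), Irgm2 (2.94), Ifi47 (0.80), Tgtp2 (0.63), Tgtp1 (0.61), Iigp1 (0.54) and Gm4951 (0.18). By these counts the 3 regulators had the highest means in both groups. The divisor was the merged exons of all annotated transcripts, 5.81 kb for Irgm1 and 5.82 kb for Iigp1. Their longest protein-coding transcripts had 2259 and 3121 bases, while for Igtp either length was 2022 bases. The order and the overlaps given here thus depend on the length used. Reads from the windows that Tgtp1 (80.0%) and Tgtp2 (80.4%) share with each other may have been dropped. Their levels may thus be too low, and their places against the other genes are uncertain. In EIC the ranges of Irgm2 and Igtp reached down into those of effectors, and that of Gm4951 overlapped those of all 4 effectors. The ranges over mice of Tgtp2, Iigp1, Tgtp1 and Ifi47 overlapped in EIC, as did those of the 3 regulators, so the order within each set is not firm there. In Control the ranges of Igtp and Irgm2 overlapped, Ifi47 overlapped with Tgtp1 and Tgtp2, and these with Iigp1, while Irgm1 stood above and Gm4951 below all others. The coefficient of variation in EIC mice was 27.6% for Irgm1 and 48.4 to 76.7% for the other 7, while in Control mice it was 7.11% for Igtp, 8.23% for Ifi47 and at most 54.1%, for Gm4951.

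Effector transcripts were also set against regulator transcripts within each mouse, as the summed CPM of Iigp1, Tgtp1, Tgtp2 and Ifi47 for every 100 CPM of Irgm1, Irgm2 and Igtp. This ratio was 23.9, 18.4, 42.2, 31.8 and 31.98 in EIC mice 65 to 69, against 14.1, 12.9, 17.0, 14.2 and 15.1 in Control mice 651 to 655. It was 17.2, 21.9, 16.4, 13.3 and 13.7 in EIC + S60 mice, and 21.4, 15.2, 30.8, 15.1 and 13.4 in EIC + S120 mice. The EIC and Control ranges did not overlap, and both sparsentan ranges overlapped those of EIC and of Control. The ratio averaged 29.7 ± 9.05 in EIC, 16.5 ± 3.45 in EIC + S60, 19.2 ± 7.18 in EIC + S120 and 14.7 ± 1.54 in Control (SD, n = 5), and is a description with no test. Any reads of Tgtp1 and Tgtp2 lost to their shared sequence would make it too low. Irgm1 made up most of the regulator sum, at a mean of 59.2 CPM in EIC against 24.2 CPM for Irgm2 and 17.9 CPM for Igtp. Its LFC in EIC vs. Control was 0.47, against 1.16 for Irgm2 and 1.25 for Igtp. The ratio therefore weighs the regulators unequally and does not compare the classes gene by gene.

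Most of the family rose in EIC kidneys relative to Control. By edgeR's quasi-likelihood test, 6 of 8 genes rose (Irgm2, Igtp, Iigp1, Tgtp1, Tgtp2 and Ifi47) and 0 fell, where 1.61% of all genes tested were called higher and 1.37% lower. DESeq2 called all 8 higher (background 2.54%), while limma-voom (background 1.49%) and edgeR with no filter on low counts (background 1.46%) called 5, Ifi47 no longer passing (adjusted p = 0.097 and 0.0513). At an unadjusted p under 0.05 all 8 stood higher (background 7.66%). For 5 of 8, all but Irgm1, Irgm2 and Gm4951, the EIC mice lay wholly above the Control mice (background 1.98%). The median LFC of the 8 was 1.57, against −0.01 over all genes tested. Fold changes ran between 1.38 for Irgm1 and 4.12 for Iigp1. Iigp1 averaged 12.9 ± 9.28 CPM in EIC kidneys and 3.15 ± 0.70 CPM in Control kidneys (SD, n = 5 each). The EIC mean of Irgm2 was 24.2 ± 11.7 CPM, and its Control mean 10.8 ± 1.60 CPM. Among the 5 with no overlap, the distance between the lowest EIC mouse and the highest Control mouse was smallest for Ifi47, at 2.56 and 2.23 CPM.

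Without EIC 67, 5 of 8 genes rose (background 1.12%), and the LFCs ran between 0.31 for Irgm1 and 1.61 for Tgtp2. With each library left out in turn, 3 (without Control 651, background 1.14%) to 7 (without EIC 68, background 1.07%) were called. Irgm2, Iigp1 and Tgtp2 were called in all 20 such fits, Tgtp1 in 17, Igtp in 16, Ifi47 in 5 and Irgm1 in 1. When only the 10 libraries compared were fitted, Tgtp2 alone was called, where calls also fell to 0.543% higher over all genes tested. Without both Control 651 and Control 652, 0 were called by edgeR (background 0.55%), with LFCs of 1.16 for Irgm2, 1.93 for Iigp1 and 1.95 for Tgtp2 (lowest adjusted p = 0.0658).

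**Figure D3:**
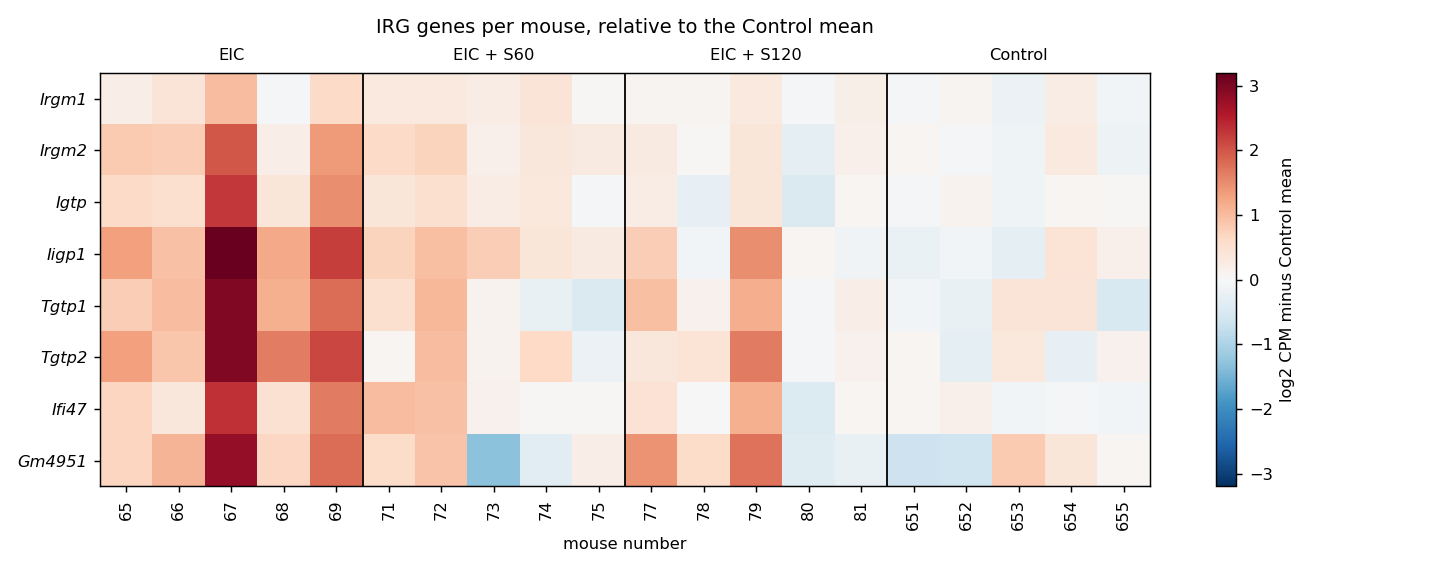
Each mouse (columns, by group and mouse number) and each IRG gene (rows), colored by log2 CPM minus the mean of the Control mice, red for higher and blue for lower. EIC 67 and EIC 69 are the darkest red columns, and among mice given sparsentan EIC + S120 79 stands out, with 8.86 CPM of Iigp1 against 28.3 CPM in EIC 67.

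The 8 genes moved together from mouse to mouse. Averaged over the 8, the log2 CPM of EIC 67 was 2.43 above the Control mean and that of EIC 69 1.63, while EIC 65, 66 and 68 were 0.81, 0.74 and 0.71 above it. In EIC + S60 the mice were 0.52, 0.80, 0.06, 0.20 and 0.02 above the Control mean, and in EIC + S120 mice 77, 78, 79 and 81 were 0.58, 0.11, 1.04 and 0.06 above it and mouse 80 was at −0.21. Across the 20 mice Pearson r between pairs of the 8 ranged from 0.58 (Irgm1 and Gm4951) to 0.95 (Irgm2 and Igtp, which share exon bases), with a median of 0.86 over 28 pairs. After group means were subtracted the median was 0.79. These are descriptions of mice that share groups, and EIC 67 weighs on each.

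Whether sparsentan changed the family was asked against EIC. In EIC + S60 vs. EIC, 0 of 8 genes passed edgeR's test, as did 0% of all genes tested in the lower direction. All 8 LFCs were negative, between −0.21 (Irgm1) and −1.63 (Tgtp2), with a median of −1.17 against −0.00 over all genes. At an unadjusted p under 0.05, 7 of 8 stood lower (background 2.75%). DESeq2 called Tgtp2 lower (adjusted p = 0.0205, background 0.0191%) and limma-voom called 0 (background 0%). Iigp1 averaged 4.92 ± 0.95 CPM in EIC + S60 mice and 12.9 ± 9.28 CPM in EIC mice (SD, n = 5 each; LFC −1.39, SE 0.36, edgeR adjusted p = 0.734). Igtp averaged 9.27 ± 1.38 CPM in EIC + S60 mice, against 17.9 ± 11.3 CPM in EIC mice (LFC −0.96, SE 0.27, adjusted p = 0.734). For Irgm2 the means were 14.7 ± 2.38 CPM in EIC + S60 mice and 24.2 ± 11.7 CPM in EIC mice (LFC −0.72, SE 0.23, adjusted p = 0.738). 0 of the 8 had groups without overlap (background 0.386%).

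In EIC + S120 vs. EIC, 0 of 8 genes passed edgeR's test (background 0.0214% lower), and all 8 LFCs were negative, between −0.35 (Irgm1) and −1.46 (Iigp1), with a median of −1.13. At an unadjusted p under 0.05, 7 of 8 stood lower (background 4.27%), Gm4951 being the exception. DESeq2 called 4 lower, namely Irgm2 and Igtp (adjusted p = 0.00475 for each), Iigp1 (0.0211) and Tgtp2 (0.0445; background 0.278%), and limma-voom called 0 of the 8 (background 0.00715%). For Igtp alone the groups did not overlap (background 0.55%), at 7.63 ± 1.82 CPM in EIC + S120 and 17.9 ± 11.3 CPM in EIC (SD, n = 5 each; LFC −1.23, SE 0.27, edgeR adjusted p = 0.209). The gap was narrow, with 9.78 CPM in EIC + S120 79 and 9.88 CPM in EIC 68. Irgm2 averaged 11.8 ± 2.13 CPM in EIC + S120 and 24.2 ± 11.7 CPM in EIC (LFC −1.04, SE 0.23, adjusted p = 0.201).

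Without EIC 67, the differences from EIC were smaller in size. In EIC + S60 vs. EIC the LFC of Igtp was then −0.53, of Iigp1 −0.87 and of Tgtp2 −1.22, and in EIC + S120 vs. EIC these were −0.80, −0.95 and −0.93, while Gm4951 was at −0.29. With both doses averaged, 0 of 8 genes passed edgeR's test against EIC (background 0% lower) and DESeq2 called 5 lower (Irgm2, Igtp, Iigp1, Tgtp1 and Tgtp2; background 0.134%). Leaving out EIC + S120 79 made Tgtp2 pass edgeR's test in that comparison (LFC −1.71, adjusted p = 0.0258, background 0.0143% lower). Leaving out EIC 68 made Irgm2 pass it in EIC + S120 vs. EIC (LFC −1.21, adjusted p = 0.0375, background 0.0286% lower).

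**Figure D4:**
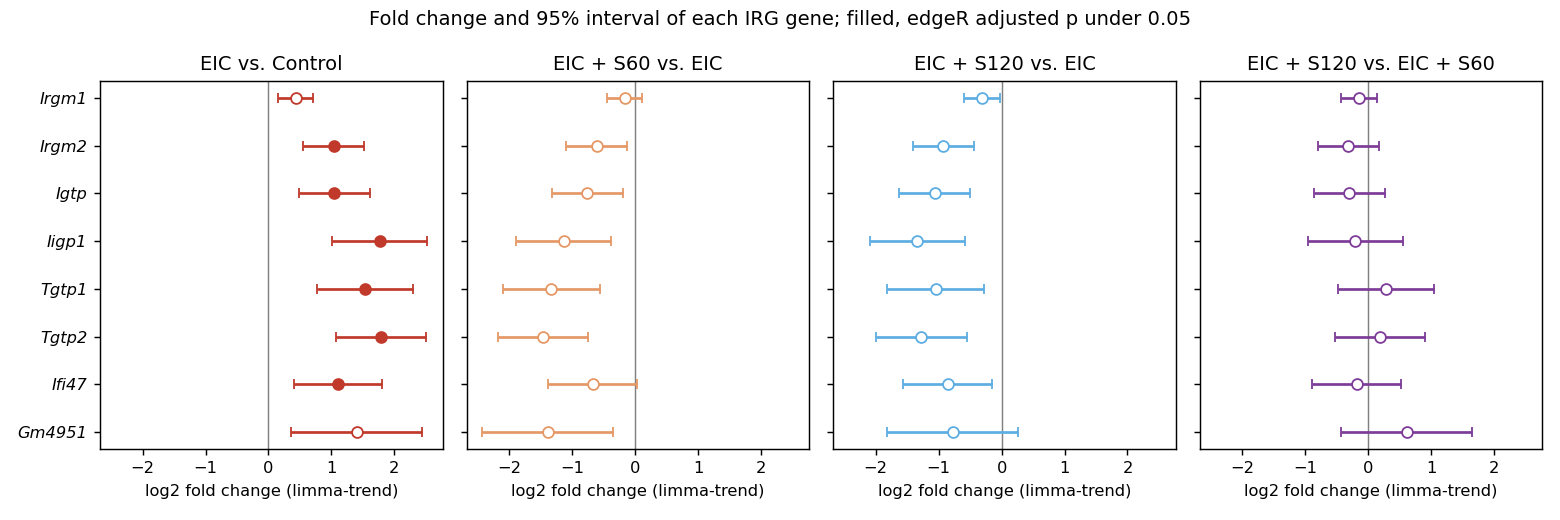
LFC with 95% interval (limma-trend on log2 CPM) of each IRG gene in EIC vs. Control, EIC + S60 vs. EIC, EIC + S120 vs. EIC and EIC + S120 vs. EIC + S60. Filled circles passed edgeR's test at an adjusted p under 0.05, which 6 of 8 genes did in EIC vs. Control and 0 of 8 in the other panels.

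Against Control, 0 of 8 genes passed edgeR's test in EIC + S60 (background 0.808% higher) or in EIC + S120 (background 2.89% higher), and DESeq2 called 0 higher at 60 mg/kg (background 1.41%) and 0 at 120 mg/kg (background 4.38%). Without adjustment, 0 of 8 stood higher at p under 0.05 at 60 mg/kg (background 6.24%) or at 120 mg/kg (background 9.86%). LFCs lay between 0.22 (Gm4951) and 0.65 (Iigp1) in EIC + S60 vs. Control, and between 0.02 (Igtp) and 0.99 (Gm4951) in EIC + S120 vs. Control. The 95% intervals from limma-trend still allowed an LFC of 1.39 for Iigp1 in EIC + S60 and of 1.23 for Tgtp2 in EIC + S120, so the tests do not show that the levels were those of Control. All of these comparisons share the EIC and Control mice.

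The doses were compared directly as EIC + S120 vs. EIC + S60, where 0 of 8 genes passed edgeR's test in either direction (background 0.0357% higher and 0.0286% lower), DESeq2 called 0 (background 0.414% higher and 0.211% lower), and 0 stood at an unadjusted p under 0.05 (background 4.03% higher and 4.05% lower). The regulators had LFCs of −0.14 (Irgm1), −0.31 (Irgm2) and −0.28 (Igtp), with limma-trend intervals of −0.43 to 0.14, −0.80 to 0.16 and −0.86 to 0.27. Iigp1 and Ifi47 were at −0.07 and −0.14, while Tgtp1, Tgtp2 and Gm4951 were at 0.29, 0.29 and 0.77. Intervals of the effectors and Gm4951 were wide, such as −0.43 to 1.65 for Gm4951 and −0.53 to 0.91 for Tgtp2. Dose differences within these limits were therefore not excluded.

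The interferon-gamma pathway was followed in 12 genes, not all of which act upstream of the family. The LFCs of Ifngr1, Ifngr2, Jak1 and Jak2 in EIC vs. Control lay between −0.16 and 0.02, with edgeR adjusted p of 0.424 or more. Of the 12, 3 rose with EIC and 0 fell (background 1.61% higher and 1.37% lower). These were Irf1, a transcription factor that interferon-gamma induces (20.2 CPM in EIC mice and 11.7 CPM in Control mice, LFC 0.78, adjusted p = 0.0441), Irf9 (LFC 0.57, adjusted p = 0.0335) and Nlrc5, which drives MHC class I transcription (LFC 1.80, adjusted p = 0.0236). Ciita, its MHC class II counterpart, had an LFC of 1.30 (adjusted p = 0.064), and Socs1, an inhibitor of the pathway, 0.96 (adjusted p = 0.215). The median LFC of the 12 was 0.12. Interferon-gamma itself (Ifng) was not analysed here. Without EIC 67, 0 of the 12 passed (background 1.12% higher).

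Other families that interferon-gamma induces were set beside the IRG genes, by edgeR's test in EIC vs. Control (background 1.61% higher and 1.37% lower). Without EIC 67 the background was 1.12% higher. Of 8 guanylate-binding proteins, GTPases that coat the same vacuoles, 5 rose with EIC (Gbp2, Gbp2b, Gbp4, Gbp5 and Gbp9) and 0 fell, with a median LFC of 1.07, and 2 passed without EIC 67. Gbp4 had an LFC of 1.36 (edgeR adjusted p = 0.0146) and Gbp3, the most abundant at 42.3 CPM in EIC mice and 40.6 CPM in Control mice, one of 0.07 (adjusted p = 0.934). Of 8 immunoproteasome and peptide transporter genes, 4 rose (Psmb8, Psmb9, Psme1 and Tap1), with a median of 0.44, and 0 passed without EIC 67. Of 13 type I interferon-stimulated genes, 1 rose (Zbp1, which senses Z-form DNA and RNA, LFC 2.73, adjusted p = 0.0419), with a median of 0.71 and 12 of 13 LFCs positive. Of 10 genes of the ATG8 conjugation machinery, which guides IRG proteins to vacuoles, 0 passed and the median was 0.04. Of 3 IRG-related genes outside the 8 that could be tested (Irgq, 9930111J21Rik1 and 9930111J21Rik2), 0 passed, with LFCs of −0.15, −0.26 and 0.44. Without Control 651 and Control 652, 0 genes of the interferon-gamma pathway and of these lists passed in EIC vs. Control, and 1 macrophage marker did (background 0.55% higher). In each sparsentan group vs. EIC, 0 genes of these lists passed edgeR's test. The background was 0% lower at 60 mg/kg and 0.0214% lower at 120 mg/kg, so these counts of 0 say little about the lists.

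**Figure D5:**
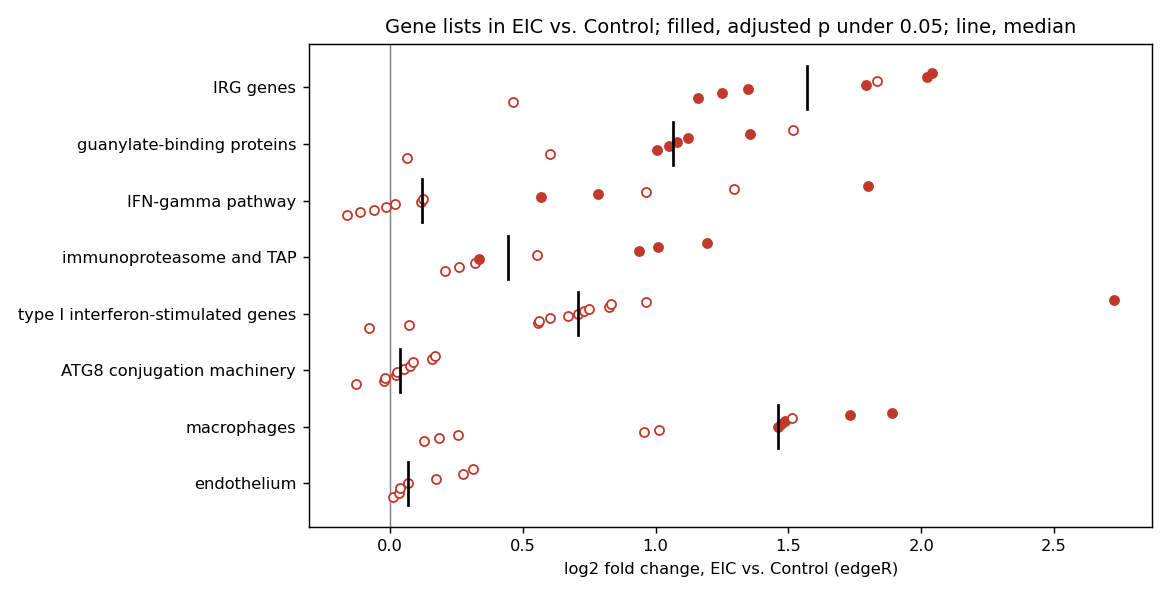
LFC in EIC vs. Control (edgeR) of single genes in 8 lists, with filled circles for an adjusted p under 0.05 and black lines for the median of each list. The IRG genes have the highest median, 1.57, next to 1.46 for macrophage markers, 1.07 for guanylate-binding proteins and 0.04 for the ATG8 conjugation machinery.

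Macrophages express IRG genes when stimulated by interferon-gamma, and their markers moved with the family. Of 11 macrophage markers, 5 rose in EIC vs. Control (Adgre1, Lyz2, C1qa, C1qb and C1qc) and 0 fell (background 1.61% higher and 1.37% lower). Their median LFC was 1.46, and 5 passed without EIC 67 (background 1.12% higher). Their summed level was 134, 117, 288, 143 and 189 CPM in EIC mice 65 to 69, against 94.9, 119, 97.6, 113 and 102 CPM in Control mice 651 to 655. EIC 67 and EIC 69 were thus the highest for the markers as for the 8 IRG genes. The EIC 67 peak was not particular to macrophages. It was also highest of its group for summed markers of dendritic cells (14.6 CPM), neutrophils (3.01 CPM), B and plasma cells (2.73 CPM) and endothelium (710 CPM, against 706 CPM in EIC 68). For podocyte and proximal tubule markers it was not the highest. In EIC + S60 the sum ranged between 95.3 and 167 CPM, highest in mouse 72, and in EIC + S120 between 103 and 148 CPM, highest in mouse 77, while mouse 79, highest there for the IRG genes, had 120.6 CPM. Csf1r, a defining receptor, had an LFC of 0.13 (edgeR adjusted p = 0.75). Whether a change in macrophages has a part in the IRG levels was not tested, and in whole kidney more cells of a type cannot be told apart from more RNA per cell.

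Of T and NK cell markers, 4 could be tested and 0 passed edgeR's test in EIC vs. Control (background 1.61% higher and 1.37% lower). All 4 LFCs were positive, between 0.42 and 1.48, and 2 stood higher at an unadjusted p under 0.05 (background 7.66%). Cd4 averaged 0.752 CPM in EIC mice and 0.413 CPM in Control mice. Cd8a averaged 0.488 CPM in EIC mice, against 0.388 CPM in Control mice. Gzma, a granzyme, averaged 1.02 CPM in EIC mice, against 0.334 CPM in Control mice (LFC 1.48, edgeR adjusted p = 0.144). The summed level of 9 such markers ranged between 2.34 and 7.45 CPM in EIC mice, with EIC 67 highest, and between 1.37 and 2.32 CPM in Control mice. Their part in the IRG levels was not tested. Of 3 dendritic cell markers that could be tested 1 rose (Itgax, LFC 1.17, edgeR adjusted p = 0.0342), and 0 passed without EIC 67 (background 1.12% higher). Of the B and plasma cell markers 3 could be tested, and of the neutrophil markers 2, and 0 of these passed. Of 7 endothelial, 5 podocyte and 7 proximal tubule markers, 0 passed in EIC vs. Control. Counts of 0 among so few genes are near the background and do not show that a cell type was unchanged.

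Genes outside the family were ranked by how closely they followed the mean standardised log2 CPM of the 8 over the 20 mice. The 10 nearest were Gbp2b (Pearson r = 0.93), Gbp6, Irf1, Irf9, C1qb, C1qa, Psmb8, H2-DMa, Lyz2 and Tap1 (r = 0.89). Without EIC 67, r for these 10 lay between 0.79 (H2-DMa) and 0.93 (Irf9), and after subtraction of group means between 0.80 (C1qb) and 0.93 (Gbp6). The mice share groups, so these values are a description of 20 points in 4 clusters, with no test.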

How the data were processed

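Kidney poly(A) RNA of 20 mice was sequenced at a commercial facility. Per the labels and the study's methods, reads were trimmed (Trimmomatic 0.36), mapped to GRCm38 (STAR 2.5.2b) and counted per gene (featureCounts of Subread 1.5.2), and the authors deposited raw counts, 1 column per mouse. No source used here gives the annotation or the strand setting. Genes had been filtered upstream, so unlisted genes were not analysed here.

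Genes reaching 10 counts in 5 or more libraries of 20 were tested in R 4.3.3 with edgeR 4.0.16 (TMM, 1 coefficient per group over all 4 groups, robust quasi-likelihood test, two-sided, Benjamini-Hochberg over 13990 genes, threshold 0.05). The method was tried on simulated data in which each gene had the same dispersion in all 4 groups. That trial does not cover a spread that is larger in EIC. SEs and 95% intervals came from limma 3.58.1 (limma-trend, prior count 2). Its LFCs were mostly smaller in size than those of edgeR, such as 1.05 against 1.25 for Igtp in EIC vs. Control, so SEs do not belong to the edgeR LFCs printed beside them. CPM was computed after TMM scaling from the deposited counts. Alternatives were DESeq2 1.42.0, limma-voom, RLE size factors, other filters on low counts, only the groups compared, each library left out, and both deepest Control libraries left out. List counts without EIC 67 were added after the data had been seen. Gene lengths and overlaps came from GENCODE vM21 and promoters from RefSeq (GRCm38.p6). Protein sequences were not used here. P-values rest on the spread between mice, 5 per group, pooled for each gene over all 4 groups. They do not use the spread of the compared groups alone. Among the 4 groups, the coefficient of variation of all 8 members was highest in EIC, so the pooled spread can understate that within EIC. With only EIC and Control fitted, edgeR called 1 member higher instead of 6. The 8 members and all lists were chosen with earlier results of these data known. Every member was named, as were genes of lists of at most 16 and the 10 genes most like the members. A gene of the pathway list is not reported here.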

Additional observations from a re-analysis of the deposited data

Results flagged for a closer look

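Of 32 sets of 5 values (8 IRG genes in 4 groups), 2 had a mouse far from the others, by the size of its gap to the nearest mouse relative to the range of its group. Chance gives about 1 such set in 20. Tgtp1 was at 15.3 CPM in EIC 67, where the next EIC mouse had 6.73 CPM. Tgtp2 was at 5.99 CPM in EIC + S120 79, where the next mouse of that group had 2.501 CPM. The counts of both genes are uncertain because they share most of their sequence, and EIC 67 and EIC + S120 79 were the highest of their groups for all 8 genes. The cause was not tested.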

How the results depend on the processing

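Of 385 LFCs of single members under other settings, excluding single libraries left out, 358 kept their direction and their side of the threshold. In EIC vs. Control, edgeR called 1 of 8 members when only the groups compared were fitted and 0 without both deepest Control libraries, where fewer samples entered. Over all genes, DESeq2 called 384 higher and 305 lower, the groups compared alone gave 74 and 69, and the fit without both deepest Control libraries 76 and 48. In EIC + S60 vs. EIC, DESeq2 called 1 member lower, and 2 genes higher and 3 lower, and the groups compared alone gave 1 higher. In EIC + S120 vs. EIC, DESeq2 called 4 members lower, and 27 genes higher and 37 lower. RLE size factors, no filter on low counts and the fit without both deepest Control libraries each gave 3 higher, limma-voom 3 higher and 1 lower, and the groups compared alone 2 and 0. In EIC + S60 vs. Control, DESeq2 called 201 and 147, the fit without both deepest Control libraries 37 lower, and there the LFC of Gm4951 was −0.32. In EIC + S120 vs. Control, DESeq2 called 609 higher, the groups compared alone 235 lower and the fit without both deepest Control libraries 225 lower, and limma-voom gave Igtp an LFC of −0.017. For EIC + S120 vs. EIC + S60, DESeq2 called 55 and 28, and the groups compared alone 1 lower. With both doses averaged vs. EIC, DESeq2 called 5 members lower, and 9 genes higher and 19 lower, while limma-voom, a filter at 1 CPM, the groups compared alone and the fit without both deepest Control libraries each gave 1 higher. The causes were not tested.

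With single libraries left out, EIC vs. Control gave 3 to 7 members, 132 to 283 genes higher and 83 to 208 lower. EIC + S60 vs. EIC gave 0 to 1 higher, and EIC + S120 vs. EIC 0 to 1 members lower, 1 to 8 genes higher and 0 to 6 lower. EIC + S60 vs. Control gave 68 to 142 higher and 35 to 84 lower, and EIC + S120 vs. Control 268 to 676 and 218 to 496. EIC + S120 vs. EIC + S60 gave 2 to 42 and 0 to 12. The averaged doses gave 0 to 1 members lower, 0 to 1 genes higher and 0 to 2 lower. LFCs near 0 changed sign for Tgtp1 (−0.018 to 0.43) and Gm4951 (−0.069 to 0.56) in EIC + S60 vs. Control, Igtp (−0.083 to 0.12) in EIC + S120 vs. Control, and Iigp1 (−0.44 to 0.065), Tgtp2 (−0.14 to 0.49) and Ifi47 (−0.44 to 0.013) in EIC + S120 vs. EIC + S60. No paired analysis was possible because the mouse numbers differ between all groups. Depth limits Gm4951 most, with 2 to 65 counts per library.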
